A study of Mus musculus with 24 samples.

Results

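The keratins were followed through mouse hind paw skin, and as traces in dorsal root ganglia (DRG), after an agonistic antibody to the lymphotoxin beta receptor (LTβR) had been injected into the paw. Keratins are the intermediate filament proteins of epithelial cells. A type I chain pairs with a type II chain, the pairs assemble into filaments, and the filaments anchor at desmosomes and hemidesmosomes. In epidermis the basal layer makes KRT5 and KRT14, the layers above it switch to KRT1 and KRT10, and KRT2 comes on in the upper layers. KRT6, KRT16 and KRT17 are the stress keratins, kept low in resting skin between hair follicles and known for induction by wounding, friction and inflammation, although thick sole skin and hair follicles make them as well. Hair follicles add their own sets for the shaft, the inner root sheath and the companion layer.

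The members were all gene symbols that begin with Krt and a digit and that had 10 or more counts in 3 or more of the 9 paw libraries. Of 22609 symbols in the files, 52 were keratins and 50 met this rule; Krt13 and Krt74 did not. By textbook roles the 50 held 3 basal, 7 differentiated, 4 stress, 15 hair shaft, 6 inner root sheath, 1 companion layer (Krt75) and 5 simple epithelial keratins, 8 others and the pseudogene Krt72-ps. A filter on low counts left 49 of them, all but Krt40, in the tests on paw and 22 in the tests on DRG.

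The mice were male C57 animals of 8 to 12 weeks with no transgene named in the labels. The day 1 group was taken 1 day after 1 intraplantar (i.pl.) dose of 10 µg LTβR agonistic antibody. The day 6 group had 2 such doses and differed from the others in both time and number of doses; the titles and the design text time it differently, so day 6 is a group name. The control group was taken 1 day after 10 µg IgG, so no control matched the time and dosing of day 6. Each group held 3 libraries of polyadenylated RNA per tissue, from punch biopsies in the case of paw. Nothing in the labels says that each library is a separate animal, and p-values therefore measure the spread between these samples, which may be technical. In bulk tissue, fewer cells of a type and less RNA per cell cannot be told apart.

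Some libraries stood apart before any keratin was considered. The 9 paw libraries held 24.2 to 41.0 reads counted in genes, in units of 1e6. The summed level of 10 skeletal muscle genes was 28681, 23369 and 10889 CPM in the day 1 libraries, 16165, 4086 and 9596 CPM in the day 6 libraries and 166, 18794 and 17838 CPM in the control libraries, so control 1 had far less muscle RNA than the other 8 libraries. CPM here are counts scaled to 1e6 reads in genes and by TMM factors. The 12 keratinocyte genes that are not keratins summed to 16629, 16402 and 20387 CPM in the day 1 libraries, 16416, 18689 and 23711 CPM in the day 6 libraries and 26647, 18511 and 20684 CPM in the control libraries. In DRG, control 1 had 9956286 reads outside annotated features, whereas the other 8 libraries had 4433243 to 5229871.

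No keratin passed the test in paw on either day. With edgeR's quasi-likelihood test and Benjamini-Hochberg adjustment over all genes, 0 of 49 keratins had an adjusted p under 0.05 at day 1 against control, beside 0.00654% of all 15287 genes, and 6 had an unadjusted p under 0.05, which is 12.2% of the keratins beside 10.6% of all genes. At day 6 against control 0 of 49 passed, beside 0.706% of all genes, and 7 of 49, or 14.3%, had an unadjusted p under 0.05 beside 9.74%. At day 6 against day 1 again 0 of 49 passed, beside 1.03% of all genes, and 1 had an unadjusted p under 0.05, which is 2.04% beside 14%. DESeq2, an alternative tool, called 1 keratin, Krt14, at day 1. It called 0 in both day 6 comparisons. The share of all genes that DESeq2 called is not given here, so these counts have no background beside them.

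Fold changes against control leaned to one side, and control 1 had a large part in this. At day 1, 45 of 49 keratins had a negative log2 fold change, or 91.8% beside 49.2% of all genes, and at day 6, 43 of 49 did, or 87.8% beside 53.3%. Between the days the split was even, with 23 of 49 negative at day 6 against day 1, or 46.9% beside 51.4% of all genes. Without control 1, 32 of 50 were negative at day 1, beside 44.7% of all genes, and 24 of 50 at day 6, beside 46.0% of all genes, so the lean at day 6 was absent without that library. Scaled to 12 keratinocyte genes that are not keratins, 35 of 49 were negative at day 1, beside 12.7% of all genes, and 37 at day 6, beside 21.2%, since this scaling moved the values of all genes up. Both comparisons with control share the same 3 control libraries, and the keratins share cells, so these counts do not add up as independent evidence. Complete separation of the groups was no commoner among keratins than among other genes at day 1. The 3 day 1 values lay below the 3 control values for 4 of 49 keratins (Krt14, Krt5, Krt20 and Krt78), or 8.16% beside 8.6% of all genes, and above them for 0 of 49, beside 6.4%. At day 6 all 3 values lay below all 3 controls for 5 (Krt20, Krt36, Krt42, Krt79 and Krt84), or 10.2% beside 5.87%, and above for 0, beside 8.22%. Day 6 lay above day 1 for Krt1, Krt12 and Krt78, or 6.12% beside 12.7%, and below it for Krt84 alone, or 2.04% beside 9.57%.

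**Figure D1:**
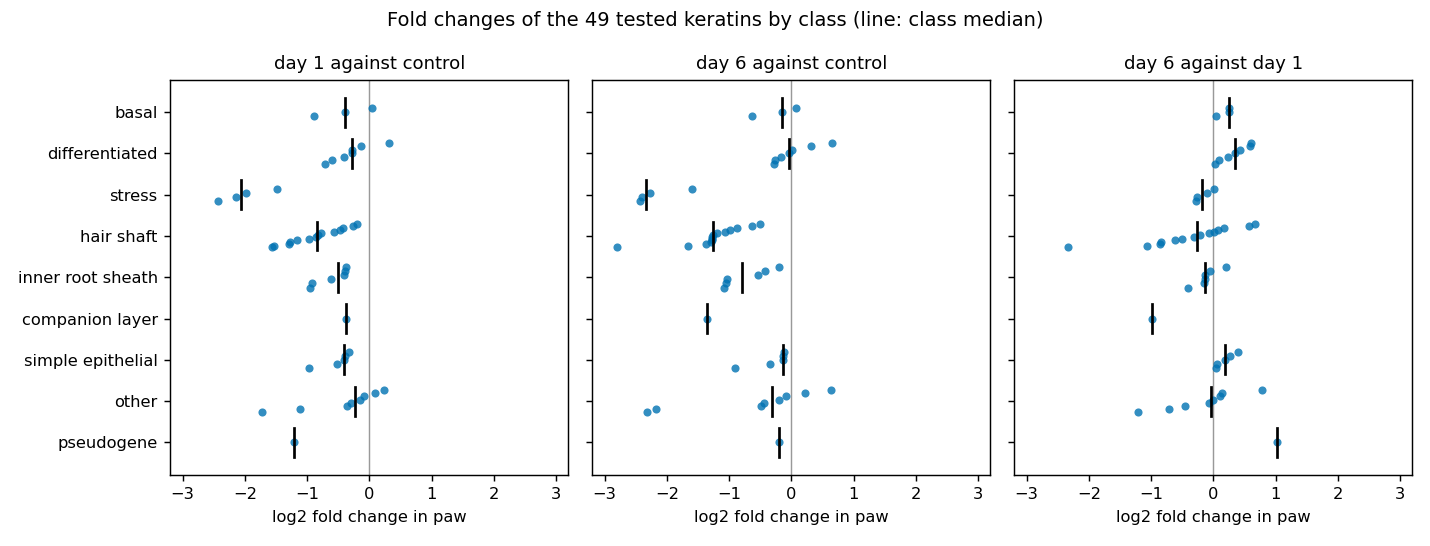
Log2 fold change in paw (x axis) of the 49 tested keratins by class (rows) in 3 comparisons. Each point is 1 gene and each black line the class median. The stress class has the lowest median in both comparisons with control, -2.07 and -2.34, and all 21 tested hair keratins of the 3 follicle classes lie left of 0 there.

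Most keratin reads in paw came from the differentiated keratins of the epidermis. All 50 members together took 8.26, 7.79 and 9.73% of the gene reads in the day 1 libraries, 9.08, 10.5 and 11.1% in the day 6 libraries and 14.6, 9.28 and 10.0% in the control libraries. For day 1 library 1 the 95% exact (Clopper-Pearson) interval was 8.25 to 8.27%, and such intervals cover counting error only. Control 1, the library with little muscle, had the highest share. Without it the remaining 2 controls lay among the other libraries. Within the keratin reads the differentiated class made up 87.5, 88.7 and 90.3% in the day 1 libraries, 90.6, 87.5 and 90.5% in the day 6 libraries and 86.6, 81.4 and 88.9% in the control libraries. Per kilobase of transcript, the most abundant keratins over the 9 libraries were Krt10 with a mean level of 17048 CPM per kb, Krt2 with 13612 and Krt1 with 5994. They were followed by Krt24 with 2032, Krt14 with 1834, Krt5 with 1093 and Krt9 with 768 CPM per kb. Krt9, the keratin of palm and sole skin, was thus well detected in these biopsies.

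Some keratins are so alike that short reads cannot be assigned to one of them, and the counting left out reads that fitted several places. The coding sequences of Krt6a and Krt6b, which encode near-identical type II chains, matched at 97.77% of 1662 aligned bases in GENCODE M21 transcripts. The stretch where they differ most is shown because reads over such differences are what separates the 2 genes; it covers coding bases 817 to 876 and has 10 differences, in capitals.
Krt6a: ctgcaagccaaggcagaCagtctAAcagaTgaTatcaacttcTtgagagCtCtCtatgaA
Krt6b: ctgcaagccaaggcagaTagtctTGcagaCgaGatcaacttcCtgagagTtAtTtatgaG
Of all windows of 50 bases, the read length, in the Krt6a transcript 61.96% also occur in another gene's transcript, chiefly Krt6b, and for Krt6b the share is 50.1%. It is 37.6% for Krt16, shared with Krt14 and the gene model Gm11597, 43.5% for Krt81, 43.3% for Krt86 and 14.4% for Krt14. Levels of these genes therefore read low. Krt12 shares 42.04% of its windows with A830036E02Rik, so its few reads cannot be assigned with certainty.

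The stress keratins had the largest fold changes of the epidermal classes, and the widest spread. Krt16, the type I stress keratin, had 458, 175 and 180.1 CPM in the day 1 libraries, 40.1, 583 and 52.3 CPM in the day 6 libraries and 1844, 1424 and 322 CPM in the control libraries. The means were 271 ± 162 CPM at day 1, 225 ± 310.2 CPM at day 6 and 1197 ± 786 CPM in controls (SD, n = 3 each). All 3 day 1 values lay below those of controls 1 and 2, but day 1 library 1 lay above control 3. Krt6a, a type II partner of Krt16, had 606, 285 and 260.1 CPM in the day 1 libraries, 51.8, 801 and 94.0 CPM in the day 6 libraries and 1983, 2097 and 492 CPM in the control libraries, with the same overlap. Krt6b had 351, 147 and 133 CPM in the day 1 libraries, 9.43, 615 and 9.44 CPM in the day 6 libraries and 1535, 1556 and 318 CPM in the control libraries. Day 6 library 2 held more of each of these genes than control 3, while day 6 libraries 1 and 3 were the 2 lowest of the 9 libraries. Krt17, a type I stress keratin that is also made in hair follicles, had 253, 172 and 151 CPM in the day 1 libraries, 108, 312 and 115 CPM in the day 6 libraries and 710.4, 676 and 231 CPM in the control libraries.

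None of the 4 passed the test on either day. The log2 fold changes at day 1 were -2.14 ± 1.17 (SE, adjusted p = 0.529) for Krt16, -1.99 ± 1.09 (SE, adjusted p = 0.529) for Krt6a, -2.43 ± 1.61 (SE, adjusted p = 0.572) for Krt6b and -1.49 ± 0.55 (SE, adjusted p = 0.430) for Krt17. At day 6 they were -2.41 ± 1.18 (SE, adjusted p = 0.592) for Krt16, -2.27 ± 1.10 (SE, adjusted p = 0.585) for Krt6a, -2.43 ± 1.61 (SE, adjusted p = 0.742) for Krt6b and -1.60 ± 0.56 (SE, adjusted p = 0.368) for Krt17. The class median was -2.07 at day 1 and -2.34 at day 6, beside medians of 0.01 and -0.01 over all genes. Single libraries set these values. Without day 6 library 2 the day 6 median was -4.54 and the median of day 6 against day 1 was -2.47, against -0.19 with it. Control 3 alone had stress keratin levels inside the range of the treated libraries, so the distance from control rests on controls 1 and 2.

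**Figure D2:**
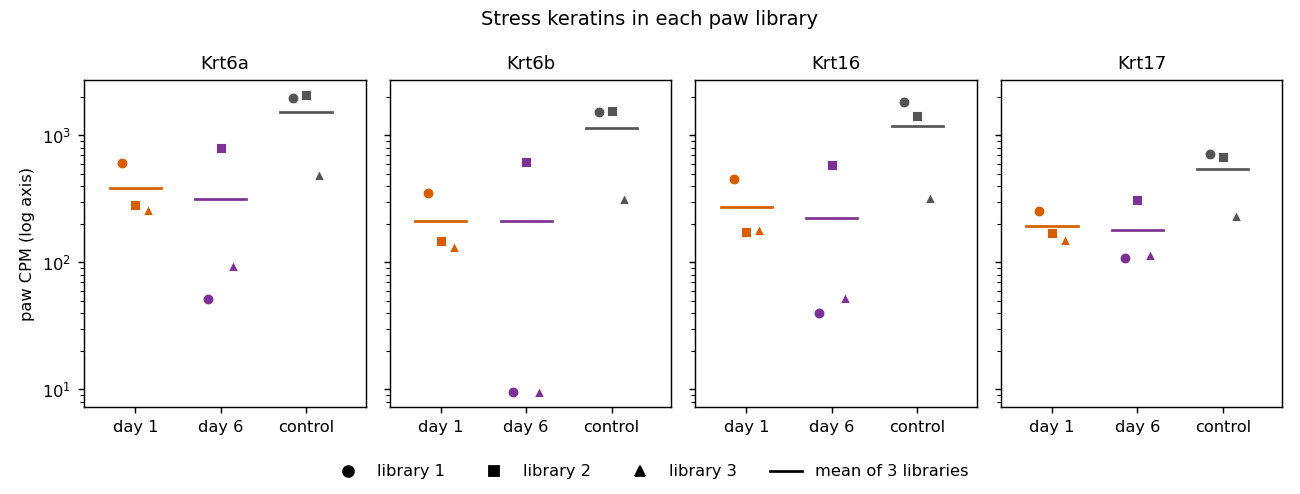
CPM of the 4 stress keratins in each of the 9 paw libraries (log axis), with day 1 and day 6 left of control; symbols give the library number and lines the mean of 3. In each panel controls 1 and 2 are highest, control 3 lies well below them, and day 6 library 2 stands above day 6 libraries 1 and 3.

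The 4 stress keratins moved together from library to library. Over the 9 paw libraries the 6 pairwise correlations of their log2 CPM had a median r of 0.974 and a lowest value of 0.913, given as a description of libraries that share depth and tissue content. The paralogs did not keep a fixed ratio. Krt6b counts divided by Krt6a counts were 0.579, 0.515 and 0.511 in the day 1 libraries, 0.182, 0.768 and 0.1004 in the day 6 libraries and 0.774, 0.742 and 0.647 in the control libraries. Day 6 libraries 1 and 3 had 9.43 and 9.44 CPM of Krt6b beside 51.8 and 94.0 CPM of Krt6a, and in day 6 library 2 the ratio was like that of controls 1 and 2. Krt6a counts divided by Krt16 counts stayed between 1.08 and 1.80 in all 9 libraries. The ratios were chosen after their values were seen.

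Other genes of stressed epidermis leaned the same way. Of a list of 20, which includes calprotectin subunits, small proline-rich proteins and growth factors, 0 passed the test on either day. In this list 19 had a negative log2 fold change at day 1, beside 49.2% of all genes, and 20 at day 6, beside 53.3%. The medians of the list were -1.005 and -1.37. Without control 1, 19 of 20 were negative at day 1 and 17 at day 6, beside the all-gene shares given above for that setting. Control 2, which stayed in, was high as well. The list summed to 2695, 2555 and 1376 CPM in the control libraries. It summed to 1212 to 1474 CPM at day 1 and 1068 to 1701 CPM at day 6. Control 3 thus lay inside the range of the treated libraries, and the distance of the sum from control rests on controls 1 and 2. S100a9, a calprotectin subunit made by neutrophils and stressed keratinocytes, had 23.5, 3.92 and 7.73 CPM in the day 1 libraries, 3.40, 56.4 and 0.932 CPM in the day 6 libraries and 134, 167 and 14.2 CPM in the control libraries. Fosl1, an AP-1 subunit, had the smallest p of the list, with a log2 fold change of -2.07 ± 0.50 (SE, adjusted p = 0.138) at day 6, and Il1f9, which encodes the cytokine IL-36γ, was next with -1.15 ± 0.31 (SE, adjusted p = 0.364) at day 1. The 5 genes outside the family whose log2 CPM tracked Krt16 most closely over the 9 libraries were 2610528A11Rik with r = 0.987, Gm5416 with 0.971, the protease inhibitor gene Slpi with 0.968, Chi3l1 with 0.964 and the small proline-rich gene Sprr1a with 0.964. Slpi had 24.2, 8.38 and 14.7 CPM in the day 1 libraries, 1.63, 27.9 and 1.52 CPM in the day 6 libraries and 56.8, 125 and 12.8 CPM in the control libraries, a pattern it was chosen for.

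Leukocyte markers went the other way at day 6. All 5 of Ptprc, Cd52, Laptm5, Coro1a and Lcp1 rose at day 6 against control (adjusted p under 0.05 each, edgeR), where 0.706% of all genes passed. The median log2 fold change of the 5 was 1.30. At day 6 against day 1, 4 of the 5 rose, where 1.03% of all genes passed. The summed level of the 5 was 96.2 to 136 CPM in the day 1 libraries, 199 to 282 CPM in the day 6 libraries and 92.1 to 115 CPM in the control libraries. Ptprc, the pan-leukocyte phosphatase CD45, had 14.3, 17.5 and 11.8 CPM in the day 1 libraries, 43.1, 43.4 and 29.0 CPM in the day 6 libraries and 14.8, 16.0 and 12.2 CPM in the control libraries. The part of this difference in tissue content in the keratin values was not tested.

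Among basal keratins, Krt14 and Krt5 were lower in the day 1 libraries than in every control, and Krt15 was not. Krt14, the type I basal keratin, had 2445, 2293 and 2219.6 CPM in the day 1 libraries, 2152, 3337 and 2757 CPM in the day 6 libraries and 5177, 4576 and 3072 CPM in the control libraries. The day 1 values lay close together and below all 3 controls, and 2 of the 3 day 6 values also lay below the lowest control. Its mean was 2319 ± 115 CPM at day 1, 2749 ± 592 CPM at day 6 and 4275 ± 1084 CPM in controls (SD, n = 3 each). The log2 fold change was -0.88 ± 0.23 (SE, adjusted p = 0.357) at day 1, and -0.64 ± 0.23 (SE, adjusted p = 0.363) at day 6. DESeq2 gave an adjusted p of 0.0147 for the same day 1 difference. Krt5, its type II partner, had 2151, 2063 and 1974 CPM in the day 1 libraries, 1977, 2659 and 2694 CPM in the day 6 libraries and 3207, 2551 and 2346 CPM in the control libraries. The day 1 log2 fold change of Krt5 was -0.39 ± 0.18 (SE, adjusted p = 0.476) and the day 6 one -0.14 ± 0.18 (SE, adjusted p = 0.890). Krt15, a basal keratin also known for marking the hair follicle bulge, had 131, 138 and 144 CPM in the day 1 libraries, 123.5, 97.0 and 203 CPM in the day 6 libraries and 109.9, 124 and 166 CPM in the control libraries, with fully overlapping groups and a day 1 log2 fold change of 0.04 ± 0.26 (SE, adjusted p = 0.944), whose sign changed under 4 alternatives.

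The partners did not differ equally. Krt5 counts divided by Krt14 counts were 0.880, 0.900 and 0.889 in the day 1 libraries, 0.919, 0.797 and 0.977 in the day 6 libraries and 0.620, 0.557 and 0.764 in the control libraries, a ratio chosen after its values were seen. The ratio was higher in all 6 agonist libraries than in any control. Relative to the 12 keratinocyte genes the basal difference shrank. These include desmosomal genes such as Dsp and the basal genes Itgb4 and Col17a1, which were also lower at day 1. Their log2 fold changes were -0.35, -0.42 and -0.46. Scaling to them thus removes any difference that they share with the keratins, and their sum is no independent measure of keratinocyte content. When libraries were scaled to the 12 keratinocyte genes, the median log2 fold change over all genes moved up by 0.28 at day 1 and by 0.16 at day 6, the Krt14 value at day 1 became -0.58 and that of Krt5 -0.078. Expressed as a percentage of the summed CPM of those 12 genes, Krt14 was 14.7, 14.0 and 10.9% in the day 1 libraries, 13.1, 17.9 and 11.6% in the day 6 libraries and 19.4, 24.7 and 14.9% in the control libraries. On this scale control 3 lay among the agonist libraries. Krt5 was 12.9, 12.6 and 9.68% in the day 1 libraries, 12.0, 14.2 and 11.4% in the day 6 libraries and 12.0, 13.8 and 11.3% in the control libraries, with overlapping groups.

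Genes picked for a pattern like that of Krt14 were a mixed group that included the adhesion genes Itga6 and Dsg3. Over the 9 paw libraries the highest r with Krt14 outside the family was 0.977 for Itga6, the integrin chain of hemidesmosomes, followed by 0.970 for Klk10, 0.966 for Heatr3, 0.965 for Elf3 and 0.963 for Dsg3, a basal desmosomal cadherin. Itga6 had 139.9, 141 and 139 CPM in the day 1 libraries, 128, 177 and 146 CPM in the day 6 libraries and 275, 218 and 159 CPM in the control libraries, a pattern it was chosen for. The 10 genes of hemidesmosomes and basement membrane had a median log2 fold change of -0.44 at day 1 and -0.42 at day 6. In this list 7 were negative at day 1, beside 49.2% of all genes, and 8 at day 6, beside 53.3%. On either day 0 of the 10 passed the test. The smallest p of that list belonged to Lama3, a laminin chain, with a log2 fold change of -0.56 ± 0.17 (SE, adjusted p = 0.238) at day 6. Itga6 was next, with a log2 fold change of -0.63 ± 0.19 (SE, adjusted p = 0.368) at day 1.

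No differentiated keratin passed the test, and most of their differences lay within the spread of the controls. Krt10, the main type I suprabasal keratin, had 29603, 27735 and 34298 CPM in the day 1 libraries, 33909, 35004 and 39397 CPM in the day 6 libraries and 53885, 30834 and 36628 CPM in the control libraries. Krt1, its early type II partner, had 9688, 10984 and 12062 CPM in the day 1 libraries, 12183, 16829 and 21039.8 CPM in the day 6 libraries and 21598, 10488 and 17569.9 CPM in the control libraries. Krt2, the type II keratin of the upper layers, had 33514, 28266 and 37353 CPM in the day 1 libraries, 32260.1, 31878 and 36378 CPM in the day 6 libraries and 55077, 32525 and 32859 CPM in the control libraries. In Krt10 and Krt2 control 1 stood above all other libraries, and the remaining 2 controls lay within or next to the range of the agonist libraries. The log2 fold changes at day 1 against control were -0.41 ± 0.24 (SE, adjusted p = 0.542) for Krt10, -0.60 ± 0.30 (SE, adjusted p = 0.496) for Krt1 and -0.28 ± 0.25 (SE, adjusted p = 0.635) for Krt2, and the sign of Krt2 changed under 3 alternatives, leaving out control 1 among them. The class median was -0.28 at day 1, -0.04 at day 6 and 0.34 at day 6 against day 1, where all 7 members were positive and 0 passed the test. The sign of the day 6 median against control changed under several alternatives, leaving out control 1 among them. On the percentage scale of the 12 keratinocyte genes, Krt10 stood at 178, 169 and 168% in the day 1 libraries, 207, 187 and 166% in the day 6 libraries and 202, 167 and 177% in the control libraries.

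Krt78, a type II keratin of differentiating epidermis, had 285, 255 and 333 CPM in the day 1 libraries, 352, 355 and 465 CPM in the day 6 libraries and 641, 354 and 431 CPM in the control libraries. All 3 day 1 values lay below all 3 controls, with a log2 fold change of -0.71 ± 0.22 (SE, adjusted p = 0.387). The day 6 values lay above day 1, with a log2 fold change of 0.42 ± 0.22 (SE, adjusted p = 0.428) at day 6 against day 1. Krt1 was likewise higher in every day 6 library than in every day 1 library, with a log2 fold change of 0.61 ± 0.30 (SE, adjusted p = 0.398). Krt80, another keratin of differentiating cells, had 246, 199 and 246 CPM in the day 1 libraries, 197, 204 and 339 CPM in the day 6 libraries and 260.4, 206 and 294 CPM in the control libraries, and its groups overlapped. Krt77, a suprabasal type II keratin, was the rarest of the class with 0.503 to 1.58 CPM, and it had the largest positive log2 fold change of the family against control, 0.31 ± 0.47 (SE, adjusted p = 0.771) at day 1 and 0.65 ± 0.46 (SE, adjusted p = 0.764) at day 6. Its day 1 sign changed without day 1 library 1.

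Krt9 differed more between libraries of a group than between groups. It had 1217, 1365 and 2203 CPM in the day 1 libraries, 1247, 1838 and 4147 CPM in the day 6 libraries and 1672, 795 and 3359 CPM in the control libraries, with library 3 the highest of each group although the numbers do not pair the samples. The day 1 log2 fold change was -0.28 ± 0.59 (SE, adjusted p = 0.834), and its sign changed without control 3. Control 3 had the second highest Krt9 level and the lowest hair keratin level of all 9, a sum of 16.8 CPM. Day 6 library 3, with the highest Krt9 level, had 107 CPM of hair keratins, so the 2 levels were not simply opposed.

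**Figure D3:**
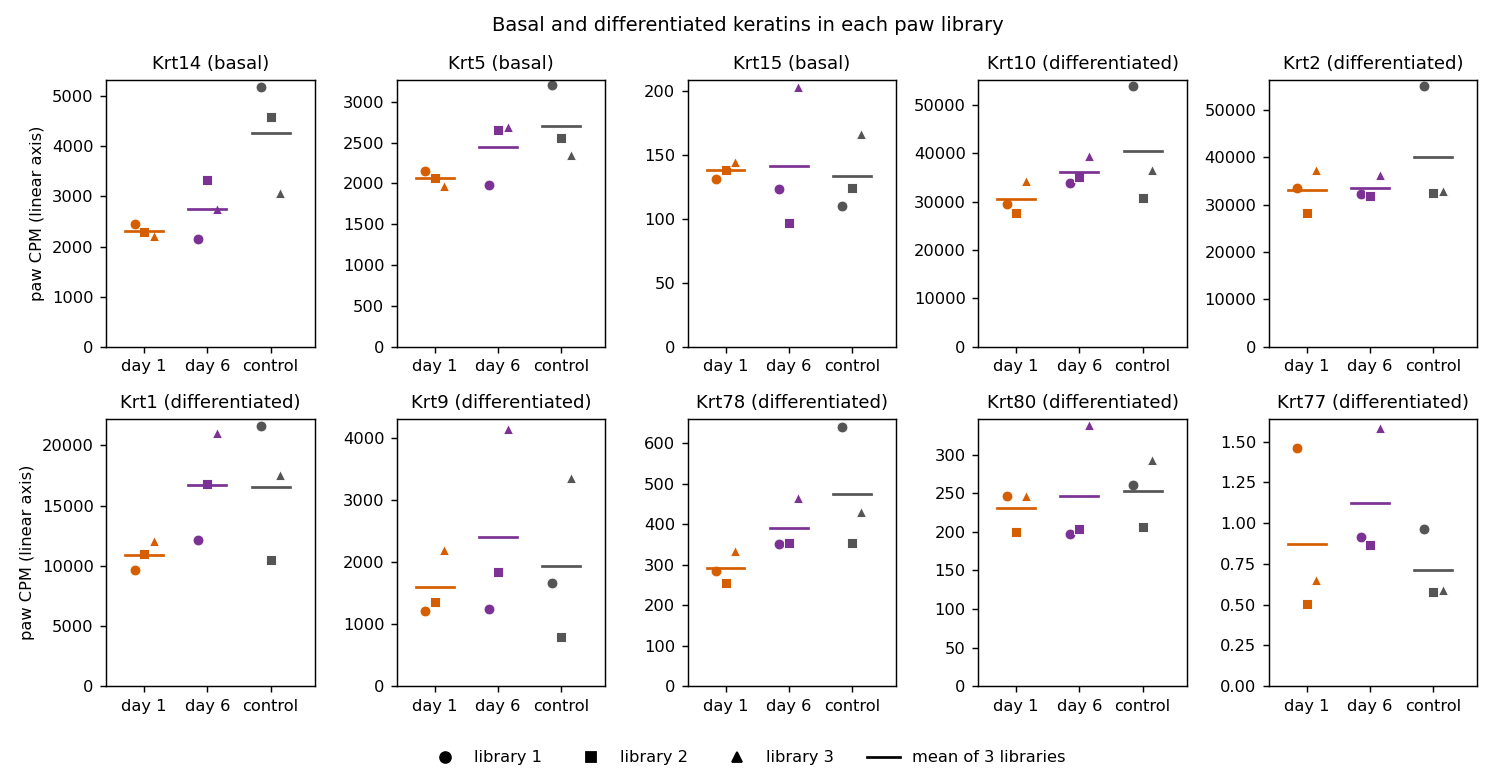
CPM of the 3 basal and 7 differentiated keratins in each paw library (linear axes from 0), with day 1 and day 6 left of control. Symbols give the library number and lines the mean of 3 libraries. The day 1 values of Krt14, Krt5 and Krt78 lie below every control, the control 1 values of Krt10 and Krt2 stand above all others, and Krt9 has its highest value in library 3 of each group.

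The genes that anchor, bundle and regulate keratins leaned the same way at day 1 without passing the test. Of all genes, 49.2% had a negative log2 fold change at day 1 against control and 53.3% at day 6. The 15 desmosomal genes were all negative at day 1, with a median of -0.35, and 13 were negative at day 6, with a median of -0.19. Dsg1b, a cadherin of the upper layers, had a day 1 log2 fold change of -0.58 ± 0.18 (SE, adjusted p = 0.368), and for the desmocollin gene Dsc2 this was -1.49 ± 0.49 (SE, adjusted p = 0.400). Without control 1, 15 of the 15 were negative at day 1 and 7 at day 6, the latter near the share of all genes without that library. Of 12 genes of filament bundling and cornification 11 were matched and tested, with medians of -0.39 at day 1 and -0.18 at day 6 and 7 negative each time. Without control 1 these medians were 0.23 and 0.13. Rptn, which encodes the cornified envelope protein repetin, had 186, 188 and 341 CPM in the day 1 libraries, 363, 536 and 229 CPM in the day 6 libraries and 1484, 682 and 570.1 CPM in the control libraries, and its day 1 log2 fold change of -1.93 ± 0.46 (SE, adjusted p = 0.357) was the strongest of that list by p, followed by -0.53 ± 0.16 (SE, adjusted p = 0.367) for the transglutaminase gene Tgm3. Of 20 regulators of keratin genes 16 were negative at day 1 and 12 at day 6, with medians of -0.23 and -0.075. Without control 1 the number at day 6 was 6. Ovol1, a transcription factor of keratinocyte growth arrest and differentiation, had a day 1 log2 fold change of -1.36 ± 0.28 (SE, adjusted p = 0.348). That of Grhl3, a factor of barrier formation, was -0.69 ± 0.23 (SE, adjusted p = 0.400). Of 15 tested genes for other intermediate filaments 5 were negative at day 1 and 6 at day 6, with medians of 0.33 and 0.19; the lamin gene Lmnb1 had a log2 fold change of -0.62 ± 0.19 (SE, adjusted p = 0.368) at day 1. Vim, the vimentin gene, had one of 0.59 ± 0.21 (SE, adjusted p = 0.342) at day 6. Without control 1 the medians of this list were 0.20 and -0.10. The list holds muscle genes, and the desmin gene Des, one of them, had 1275, 1045 and 411 CPM in the day 1 libraries, 929, 209 and 395 CPM in the day 6 libraries and 12.7, 857 and 707 CPM in the control libraries, with control 1 far the lowest. The counts of members that rose or fell were 0 in each of these 4 lists on both days.

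The hair keratins were a matter of single libraries. Summed over 22 members (15 hair shaft, 6 inner root sheath and Krt75), they reached 177, 63.1 and 29.8 CPM in the day 1 libraries, 62.2, 52.2 and 107 CPM in the day 6 libraries and 311, 135 and 16.8 CPM in the control libraries. Control 3 and day 1 library 3 were lowest and control 1 highest. Krt71, a type II keratin of the inner root sheath and the most abundant hair keratin, had 49.5, 16.1 and 6.96 CPM in the day 1 libraries, 17.8, 15.8 and 32.9 CPM in the day 6 libraries and 97.3, 42.02 and 1.18 CPM in the control libraries. Krt25, a type I inner root sheath keratin, had 28.4, 12.8 and 4.86 CPM in the day 1 libraries, 12.0, 10.0 and 20.3 CPM in the day 6 libraries and 62.4, 24.2 and 1.18 CPM in the control libraries. Krt27, another, had 17.6, 6.77 and 1.72 CPM in the day 1 libraries, 5.20, 4.44 and 10.2 CPM in the day 6 libraries and 28.7, 11.1 and 0.707 CPM in the control libraries. In all 3 genes control 3 and day 1 library 3 were the lowest libraries. Among shaft keratins Krt84 had 12.5, 6.20 and 4.17 CPM in the day 1 libraries, 3.52, 3.76 and 3.73 CPM in the day 6 libraries and 15.5, 4.77 and 6.09 CPM in the control libraries. Krt35 had 3.93, 1.98 and 1.80 CPM in the day 1 libraries, 2.60, 0.364 and 1.40 CPM in the day 6 libraries and 9.26, 4.28 and 0.236 CPM in the control libraries. For Krt33a the levels were 3.45, 0.469 and 0 CPM in the day 1 libraries, 0.943, 1.43 and 3.63 CPM in the day 6 libraries and 7.41, 4.07 and 0.393 CPM in the control libraries. Krt84 varied far less between libraries than Krt35 and Krt33a. Krt75, the companion layer keratin, had 17.2, 3.49 and 2.29 CPM in the day 1 libraries, 4.17, 2.91 and 4.63 CPM in the day 6 libraries and 19.5, 7.73 and 2.63 CPM in the control libraries. In control 3, 11 of the 22 had fewer than 10 counts, and in day 1 library 3, 12 did.

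The 51 keratin-associated protein genes, whose products fill the hair shaft, had the same pair of libraries at the low end. Their summed level was 201, 35.9 and 3.63 CPM in the day 1 libraries, 27.4, 24.5 and 45.7 CPM in the day 6 libraries and 192, 42.2 and 14.3 CPM in the control libraries. Day 1 library 1 and control 1 were highest and day 1 library 3 and control 3 lowest. Trichohyalin, the inner root sheath protein encoded by Tchh, followed Krt71 with r = 0.944 over the 9 libraries, second outside the family only to Klhdc4 with r = 0.955; this look-up was added after the values were seen. Tchh had 66.3, 25.8 and 10.6 CPM in the day 1 libraries, 21.6, 22.9 and 40.8 CPM in the day 6 libraries and 116, 44.9 and 8.25 CPM in the control libraries.

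The hair fold changes were negative throughout but rested on control 1. All 21 tested hair keratins were negative on both days, with medians of -0.77 at day 1 and -1.08 at day 6, and 0 passed the test. Without control 1 the medians were 0.28 and 0.026, and 7 and 11 of 22 were negative. With limma voom the medians were 0.19 at day 1 and -0.030 at day 6. For Krt71 the log2 fold change was -0.95 ± 1.24 (SE, adjusted p = 0.735) at day 1 and -1.08 ± 1.24 (SE, adjusted p = 0.885) at day 6, and both turned positive without control 1 and with limma voom; the day 1 value also did with the skeletal muscle covariate. The median of the pairwise r over the 9 libraries was 0.945 for the 6 inner root sheath genes, with a lowest value of 0.594, and 0.796 for the 14 tested shaft genes, with a lowest value of 0.261.

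**Figure D4:**
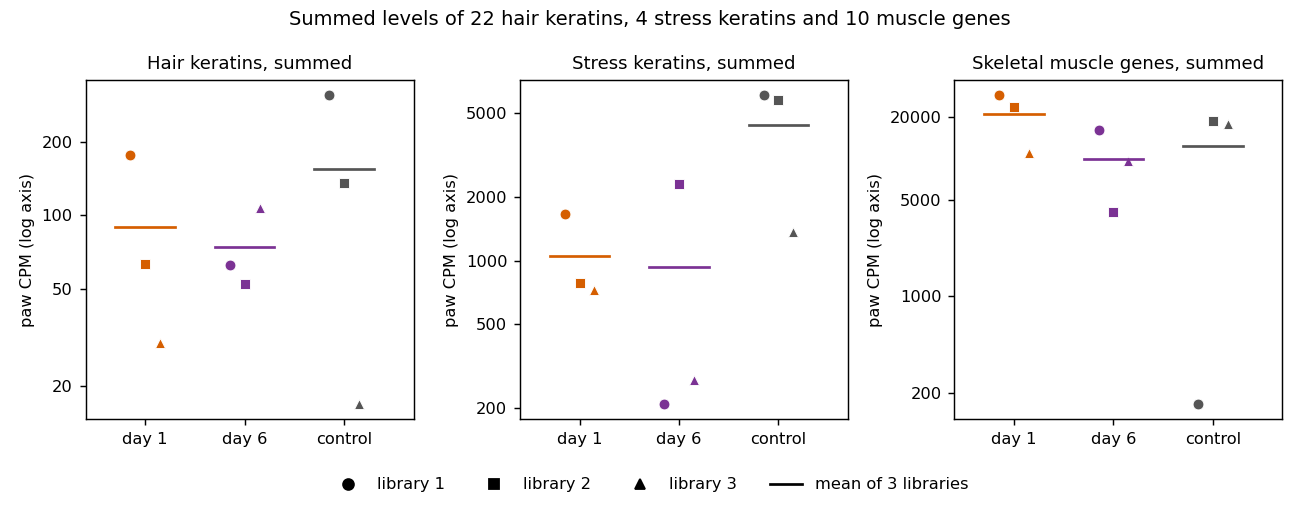
Summed CPM (log axes) of the 22 hair keratins, the 4 stress keratins and 10 skeletal muscle genes in each paw library, with day 1 and day 6 left of control. Hair keratin levels are lowest in control 3 and day 1 library 3, stress keratin levels in day 6 libraries 1 and 3, and muscle levels in control 1, so the 3 sums order the libraries differently.

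The upstream sequences of hair shaft keratins are shown because most of these genes had similar patterns from library to library. Of 33 members with an entry in the RefSeq promoter table (GRCm38.p6), 9 were hair shaft genes. Both strands of the 250 bases before each start were searched for TATAAA, the core of the TATA box, and CTTTGA, the core bound by LEF1 and its relatives. TATAAA occurred in 6 of 9 hair shaft promoters, CTTTGA in 5 and both in 4, beside 12.4%, 13.8% and 2.13% of 32851 mouse promoters. Over all 33 members the counts were 16, 8 and 6. Among the hair shaft genes, the TATAAA of Krt84 and the CTTTGA of Krt39 lay on the opposite strand, 206 and 18 bases before the start. The 4 with both lie on the minus strand of chromosome 11 at chr11:100050552-100050801, chr11:100088270-100088519, chr11:100029869-100030118 and chr11:100041555-100041804 (GRCm38.p6), and capitals mark both motifs, which do not overlap.
Krt31: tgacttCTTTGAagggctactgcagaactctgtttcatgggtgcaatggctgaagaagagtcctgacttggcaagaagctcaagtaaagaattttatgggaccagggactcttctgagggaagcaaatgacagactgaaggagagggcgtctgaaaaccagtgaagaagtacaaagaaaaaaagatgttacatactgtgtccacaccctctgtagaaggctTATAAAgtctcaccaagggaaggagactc
Krt32: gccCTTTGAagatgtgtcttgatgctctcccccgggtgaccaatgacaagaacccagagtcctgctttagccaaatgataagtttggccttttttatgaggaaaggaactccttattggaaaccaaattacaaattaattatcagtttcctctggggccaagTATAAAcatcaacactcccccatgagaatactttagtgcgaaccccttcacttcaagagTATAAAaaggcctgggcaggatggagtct
Krt33b: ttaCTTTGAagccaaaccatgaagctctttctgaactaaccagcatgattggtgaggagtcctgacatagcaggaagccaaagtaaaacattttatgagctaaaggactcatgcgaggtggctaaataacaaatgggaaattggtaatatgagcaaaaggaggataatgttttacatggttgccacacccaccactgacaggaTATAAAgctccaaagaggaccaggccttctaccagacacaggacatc
Krt34: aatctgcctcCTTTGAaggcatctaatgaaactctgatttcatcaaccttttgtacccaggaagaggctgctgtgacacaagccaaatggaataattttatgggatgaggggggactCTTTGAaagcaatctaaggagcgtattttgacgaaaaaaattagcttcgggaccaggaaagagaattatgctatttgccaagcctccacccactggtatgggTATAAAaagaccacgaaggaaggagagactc
All 6 inner root sheath genes held TATAAA, and 1 of them, Krt28, also CTTTGA. Krt25, at chr11:99322952-99323201 on the minus strand, is shown for that class with TATAAA in capitals.
Krt25: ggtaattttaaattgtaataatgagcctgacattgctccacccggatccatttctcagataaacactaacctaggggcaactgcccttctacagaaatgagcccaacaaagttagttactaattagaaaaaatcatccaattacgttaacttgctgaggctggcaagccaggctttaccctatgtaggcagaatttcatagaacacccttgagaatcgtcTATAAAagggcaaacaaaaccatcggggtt
These are matches of letters in neighbouring paralogs that share ancestry, and binding was not measured here.

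Some scarce keratins had large negative fold changes at day 6. Krt36, a hair keratin known also from nail, had 3.17, 0.771 and 0.153 CPM in the day 1 libraries, 0.372, 0.205 and 0.248 CPM in the day 6 libraries and 3.74, 0.987 and 1.06 CPM in the control libraries. Its log2 fold change was -2.80 ± 1.00 (SE, adjusted p = 0.368) at day 6 against control and -2.33 ± 0.99 (SE, adjusted p = 0.344) at day 6 against day 1. Without control 1 the first of these values was -1.86, and without day 1 library 1 the other was -0.75. Krt42, a mouse type I keratin of the nail unit, had 0.786, 0.302 and 0.115 CPM in the day 1 libraries, 0.172, 0.228 and 0.124 CPM in the day 6 libraries and 1.33, 0.781 and 0.589 CPM in the control libraries. Its log2 fold change was -2.32 ± 0.64 (SE, adjusted p = 0.194) at day 6 against control, the smallest adjusted p of any keratin against control, and -1.20 ± 0.66 (SE, adjusted p = 0.443) at day 6 against day 1. That last value was -0.23 without day 1 library 1. Krt84, a nail and tongue keratin, had a day 6 log2 fold change of -1.26 ± 0.51 (SE, adjusted p = 0.450), and its day 6 values lay within 3.52 to 3.76 CPM, below every library of the other groups. Control 1 carried much of this, and without it the value was -0.53. Krt76, a suprabasal keratin best known from oral epithelium, had 0.449, 0.168 and 0.191 CPM in the day 1 libraries, 0.0572, 0.341 and 0.186 CPM in the day 6 libraries and 1.13, 1.32 and 0.314 CPM in the control libraries, and log2 fold changes against control of -1.72 ± 0.68 (SE, adjusted p = 0.445) at day 1 and -2.17 ± 0.70 (SE, adjusted p = 0.291) at day 6. These 4 genes had fewer than 20 CPM in every library. In the day 6 libraries Krt36 had 13, 9 and 8 counts, Krt42 had 6, 10 and 4, and Krt76 had 2, 15 and 6. The day 6 values of Krt36, Krt42 and Krt76 therefore rest on few reads, while Krt84 had 123, 165 and 120 counts there.

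Of the remaining class, Krt24 was abundant and even. Krt24, a type I keratin of differentiated epidermis, had 3649, 2936 and 3649 CPM in the day 1 libraries, 3349.9, 3386 and 4256 CPM in the day 6 libraries and 5082, 3524 and 3940.2 CPM in the control libraries, and its coefficient of variation over the 9 libraries was 16.6%, against 114% for Krt16. Krt79, known in mouse from the upper hair follicle canal, had 329, 369 and 424 CPM in the day 1 libraries, 357, 365 and 342 CPM in the day 6 libraries and 560.3, 489 and 395 CPM in the control libraries, below every control at day 6. Its log2 fold change against control was -0.36 ± 0.15 (SE, adjusted p = 0.445) at day 1 and -0.44 ± 0.15 (SE, adjusted p = 0.318) at day 6. Krt23 had 22.1, 18.1 and 26.6 CPM in the day 1 libraries, 12.8, 24.3 and 29.1 CPM in the day 6 libraries and 26.5, 17.1 and 27.1 CPM in the control libraries. Krt12, the keratin of corneal epithelium, had 0.786 to 2.92 CPM, with a log2 fold change of 0.63 ± 0.35 (SE, adjusted p = 0.638) at day 6 against control and 0.79 ± 0.35 (SE, adjusted p = 0.357) at day 6 against day 1. The pseudogene Krt72-ps had 0.758, 0.235 and 0 CPM in the day 1 libraries, 0.286, 0.546 and 1.30 CPM in the day 6 libraries and 1.29, 1.15 and 0 CPM in the control libraries, with a log2 fold change of 1.02 ± 1.24 (SE, adjusted p = 0.726) at day 6 against day 1.

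Simple epithelial keratins, which in skin belong mainly to sweat glands and Merkel cells, were low. Krt18, a type I chain, had 13.5, 21.0 and 22.4 CPM in the day 1 libraries, 18.3, 24.1 and 22.5 CPM in the day 6 libraries and 28.3, 19.6 and 23.2 CPM in the control libraries. Its partner Krt8 had 6.37, 10.3 and 9.71 CPM in the day 1 libraries, 5.20, 12.2 and 9.81 CPM in the day 6 libraries and 14.4, 8.14 and 11.9 CPM in the control libraries. For Krt19, a type I chain without the usual tail, the levels were 10.1, 22.4 and 14.5 CPM in the day 1 libraries, 12.0, 26.5 and 23.6 CPM in the day 6 libraries and 24.8, 15.3 and 27.1 CPM in the control libraries. The groups overlapped for all 3. Krt7 ranged from 4.62 to 9.66 CPM. Krt20, a Merkel cell keratin, was below every control on both days, at 0.197, 0.369 and 0.191 CPM in the day 1 libraries, 0.372, 0.228 and 0.186 CPM in the day 6 libraries and 0.604, 0.411 and 0.471 CPM in the control libraries, and 0 of these 5 passed the test. The 8 Merkel cell markers, 3 of them keratins of this class, summed to 29.5 to 41.7 CPM in the day 1 libraries, 32.3 to 43.9 CPM in the day 6 libraries and 35.3 to 48.7 CPM in the control libraries. Krt18 and Krt8 made up most of this sum, and Atoh1, Sox2 and Isl1 added little. It therefore largely repeats the keratin values and gives no separate reading of Merkel cells. The 8 eccrine sweat gland markers, 3 of them keratins too, summed to 180.4 to 300.2 CPM at day 1, 217 to 333 CPM at day 6 and 205 to 358 CPM in controls. Most of that sum was Aqp5, with 269 CPM in control 1, while Cftr and Scgb3a1 were hardly detected.

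In DRG, the ganglia that hold the cell bodies of sensory neurons, epidermal keratins were present as traces. Without Krt222 the members took 0.00937, 0.0234 and 0.00871% of gene reads in the day 1 libraries, 0.0150, 0.00818 and 0.00852% in the day 6 libraries and 0.0103, 0.00890 and 0.00845% in the control libraries, and 0.00133 to 0.00161% in the 6 spinal cord libraries. For the 15 keratins with a mean of at least 100 CPM in paw, the mean DRG level was 0.0803 to 0.734% of the paw level, with a median of 0.101%. Krt80 gave the highest value and Krt79, next, gave 0.145%. Krt10 had 28.7, 83.1 and 26.2 CPM in the day 1 libraries, 50.8, 27.0 and 27.7 CPM in the day 6 libraries and 36.3, 31.4 and 28.2 CPM in the control libraries. Krt2 had 26.7, 71.8 and 25.8 CPM in the day 1 libraries, 42.9, 24.5 and 22.3 CPM in the day 6 libraries and 32.2, 24.4 and 23.3 CPM in the control libraries. Day 1 library 2 and day 6 library 1 were highest for both. In the cord the proportions differed: Krt10 had a mean of 4.11 CPM, Krt1 3.91 CPM and Krt2 0.140 CPM.

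Many of the scarce members did not follow that proportion. Krt222, a keratin-like gene, averaged 33.3 CPM in DRG, 69.8 CPM in cord and 1.03 CPM in paw. The DRG level was above 1% of the paw level for 17 of 50 members, Krt222 included, and all 17 had a mean under 20 CPM in paw. After Krt222 the highest shares were 77.3% for Krt83, 55.7% for Krt28, 49.5% for Krt40, 29.1% for Krt26, 27.8% for Krt20, 25.8% for Krt27 and 14.8% for Krt19. Krt40 and Krt20 averaged under 1 CPM in both tissues. At the other end, 7 members were at 0 counts in all 9 DRG libraries.

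**Figure D5:**
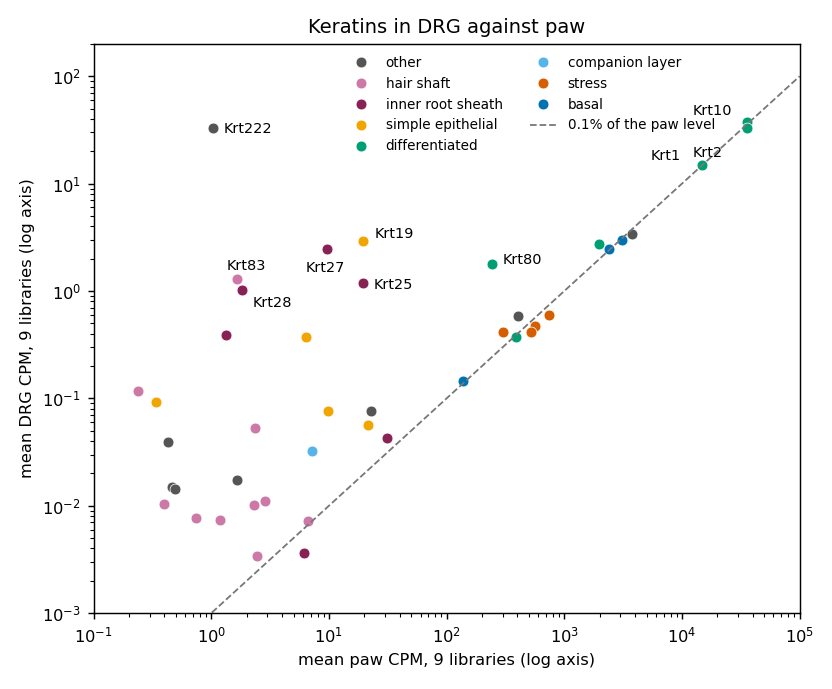
Mean CPM over 9 DRG libraries (y axis) against mean CPM over 9 paw libraries (x axis), both log axes, for the 43 keratins with any DRG count; colours give the class. The dashed line is 0.1% of the paw level. The abundant epidermal keratins lie on or near the line, and 17 keratins, all with a mean under 20 CPM in paw, stand above 1%.

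No keratin passed the edgeR test in DRG. At day 1 against control 0 of 22 passed, beside 0.168% of 15461 genes, with 3 at an unadjusted p under 0.05, or 13.6% beside 7.4%. At day 6 against control 0 of 22 passed, beside 0% of all genes, with 1 at an unadjusted p under 0.05, or 4.55% beside 3.6%. At day 6 against day 1 0 of 22 passed, beside 0.103%, and 1 had an unadjusted p under 0.05, or 4.55% beside 6.83%. DESeq2 called 1 at day 1, Krt19, again without the share of all genes beside it. Krt19, a simple epithelial type I keratin, had 5.83, 2.95 and 3.30 CPM in the day 1 libraries, 3.01, 2.56 and 2.97 CPM in the day 6 libraries and 1.60, 1.93 and 1.99 CPM in the control libraries, and its log2 fold change was 1.12 ± 0.25 (SE, adjusted p = 0.167) at day 1 and 0.62 ± 0.25 (SE, adjusted p = 0.995) at day 6. All day 1 and day 6 values lay above every control. Groups separated upward for 3 of 22 at day 1 (Krt19, Krt7 and Krt78), or 13.6% beside 7.55% of all genes, and for 4 of 22 at day 6 (Krt16, Krt17, Krt19 and Krt222), or 18.2% beside 5.17%. They separated downward for 0 of 22 at day 1, beside 5.65%, and for Krt6b alone at day 6, or 4.55% beside 3.72%. At day 6 against day 1 Krt222 lay above, or 4.55% beside 6.02%, and Krt83 below, or 4.55% beside 6.47%. Krt16 in DRG ranged from 0.193 to 1.12 CPM, so its separation rests on few reads. A negative log2 fold change was found for 3 of 22 keratins at day 1, or 13.6% beside 50.4% of all genes, and for 3 of 22 at day 6, or 13.6% beside 49.9%. Single libraries set these signs: 14 of 22 were negative at day 1 without day 1 library 2, and 12 of 22 at day 6 without day 6 library 1. At day 6 against day 1, 17 of 22 were negative, or 77.3% beside 51.5%, and 7 of 22 without day 1 library 2. The sum of the 10 skeletal muscle genes in DRG was 76.5 to 6404 CPM in the day 1 libraries, 91.3 to 544 CPM in the day 6 libraries and 73.9 to 5060.2 CPM in the control libraries. Day 1 library 2 and day 6 library 1, the libraries with most keratin reads, had 414 and 295 CPM of these genes, well below the highest value of 6404 CPM in day 1 library 1.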

How the data were processed

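RNA sequencing counts of 24 libraries in 8 groups of 3 were used, 9 each from paw and DRG and 6 from spinal cord. Per library, raw counts of reads by gene were deposited; bcl2fastq, TopHat2, the mm9 build and HTSeq are named in the submitters' processing notes, while versions, annotation and strand setting are not given in the sources used here. Reads with more than 1 placement are not counted by HTSeq. The 5 summary lines were removed from 22609 gene symbols, and 0 columns belonged to other samples. None of 24 replicate pairs was identical.

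Genes were tested within each tissue in 1 fit of all 9 libraries with edgeR 4.0.16 (R 4.3.3), using TMM factors, filterByExpr and robust 2-sided quasi-likelihood F tests, adjusted over all genes with a threshold of 0.05. In simulated data for paw at day 6 against control, with 15287 genes, 54 of 100 genes changed 2-fold and 93 of 100 changed 4-fold were recovered, with 7 false calls. The changed genes were drawn at random from genes above a minimum mean level, which the scarcest keratins did not reach. Recovery of genes with a spread as wide as that of the stress keratins was not measured separately. These rates therefore do not carry over to scarce or widely spread keratins. Correlations used log2 CPM with a prior count of 2. Transcript lengths and windows came from GENCODE M21 and promoters from RefSeq, both of another build than mm9, so only names were joined.

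Every basal, differentiated and stress keratin is named; of other classes the 3 most abundant, of each comparison the 2 largest changes in each direction, of each list the 2 genes with the smallest p, and the 5 genes most like Krt16 and Krt14. DESeq2 1.42.0 and limma voom (limma 3.58.1) were alternatives. Separated groups, Krt71's look-alikes and ratios were added. The members and lists were chosen with earlier results of these data known. Same-numbered paw libraries had a median correlation of deviations of -0.27, and those of DRG -0.09, so numbers were not used as pairs.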

Additional observations from a re-analysis of the deposited data

Results flagged for a closer look

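Krt78 had a log2 fold change of -0.71 in paw and of 1.17 in DRG at day 1 against control. All 3 day 1 libraries lay below all 3 controls in paw and above them in DRG. The difference between the tissues was not tested. In DRG the gene had 11 to 21 counts in the day 1 libraries and 3 to 9 counts in the control libraries.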

How the results depend on the processing

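The counts of keratins called were 0 of 49 in paw and 0 of 22 in DRG, and of 99 recomputed counts 97 stayed at 0, including all with the replicate block, where the pairing of numbers gave 0 called keratins in each comparison. DESeq2 gave 1 in paw at day 1 (Krt14, log2 fold change -0.88) and 1 in DRG at day 1. The counts of keratins with a negative fold change, an alternative added after the values were seen, ranged over 32 to 46 at day 1 and 24 to 46 at day 6 with single libraries left out. Of 192 recomputed class medians without limma voom, 188 moved by less than 1 SD of the per-library class medians within groups. That SD is wide, and 12 class medians against control changed sign, limma voom included; they were hair or differentiated medians and the basal one at day 6 with keratinocyte scaling. Scaling to keratinocyte genes took the basal median at day 1 to -0.078. With single libraries left out, the stress median ranged over -4.54 to -1.81 at day 6 against control and -2.47 to 0.30 at day 6 against day 1, and the differentiated median over 0.016 to 0.49 at day 6 against day 1. The 6 recomputed shares of reads moved by less than 1 SD.

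Over all tested keratins and both comparisons with control, 147 of 1652 recomputed log2 fold changes changed sign, among them 20 of 49 at day 1 and 22 of 49 at day 6 without control 1. Of the 36 single values followed by name 16 of 605 recomputed values did; no keratin was called in the fit reported. With the skeletal muscle covariate the day 1 values became -0.094 for Krt15, 0.0014 for Krt2 and 0.068 for Krt71. Limma voom gave -0.0086 for Krt15 and 0.96 for Krt71 at day 1, and 0.81 for Krt71 at day 6. Keratinocyte scaling gave 0.042 for Krt2 at day 1 and 0.018 for Krt5 at day 6, which follows from the shift of all genes under that scaling. With single libraries left out, the day 1 values ranged over -0.060 to 0.23 for Krt15, -0.41 to 0.035 for Krt2, -0.66 to 0.37 for Krt9, -0.30 to 0.62 for Krt77 and -2.03 to 0.20 for Krt71, and the day 6 values over -0.24 to 0.032 for Krt5 and -1.65 to 0.071 for Krt71. The causes were not tested. Few reads limit the scarce keratins: in control 3, 11 of the 22 hair keratins had fewer than 10 counts.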
